A study of Mus musculus with 4 samples.

Results

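The miRNAs of the miR-191 and miR-425 cluster and the pair miR-103 and miR-107, which are widely used to normalize plasma measurements, were followed through the plasma of infarcted and Sham-operated mice. They were chosen by name, not by level, as mmu-miR-191-5p, mmu-miR-425-5p, mmu-miR-425-3p, mmu-miR-103-3p and mmu-miR-107-3p, which are 5 of the 921 miRNA entries of the deposited table (the species prefix is left out from here on). Small RNA of plasma was sequenced in 4 libraries, AMI 1 and AMI 2 from infarcted and Sham 1 and Sham 2 from Sham-operated animals. According to the methods, the animals were male C57BL/6 mice at 8 weeks of age, AMI (acute myocardial infarction) was made by tying off the left anterior descending coronary artery for good, and Sham mice had the same operation without the ligation. The labels name no allele or agent in either group. Whether replicate libraries hold blood of different mice, and at what time after surgery it was taken, is not given in the sources used here, so p-values measure only the spread between these libraries, which may be technical. Counts are of UMIs (unique molecular identifiers), random tags put on each molecule so that its PCR copies count once.

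A normalizer, or reference miRNA, is a miRNA against which others are expressed, on the assumption that its own level does not follow the condition. Mature miRNAs are cut from hairpins as short single strands. Either arm of a hairpin, named 5p and 3p, can be kept, and bases 2 to 8 of the mature strand, the seed, lead the pairing with target mRNAs. miR-191 and miR-425 come from neighbouring hairpins of 1 primary transcript and are found in many tissues and blood cells. In human cells miR-425-5p represses NPPA, the gene of atrial natriuretic peptide. miR-103 and miR-107 lie in introns of pantothenate kinase genes, which make the enzymes that start coenzyme A synthesis, and in mice they regulate insulin sensitivity. In human cancer cells they also repress Dicer, the enzyme that releases mature miRNAs from their hairpins.

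The mature sequences, from RefSeq on GRCm38.p6 (5 of 5 matched), are shown because the members fall into 4 seeds and because miR-103-3p and miR-107-3p are nearly the same molecule. The seed is in capitals.
miR-191-5p: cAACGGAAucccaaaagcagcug
miR-425-5p: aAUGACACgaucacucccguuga
miR-425-3p: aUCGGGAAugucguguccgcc
miR-103-3p: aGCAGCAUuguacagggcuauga
miR-107-3p: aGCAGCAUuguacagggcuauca
miR-103-3p and miR-107-3p share 22 of 23 bases, and their 1 difference, G22C with positions counted from 1 at the 5′ end of miR-103-3p, lies next to the 3′ end. How reads that stop short of that base were assigned is not given in the sources used here, so the split of reads between these 2 miRNAs is uncertain. No further mature miRNA of the RefSeq table has their seed. The seed of miR-425-5p is shared by miR-489-3p, a scarce entry with 0 (AMI 1), 8 (AMI 2), 10 (Sham 1) and 0 (Sham 2) UMIs.

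The 5 miRNAs come from 5 hairpins on 4 chromosomes. In GRCm38, Mir191 (chr9:108568319-108568392) and Mir425 (chr9:108568777-108568861) lie 384 bases apart on the plus strand, both overlapping an exon of the long non-coding RNA 4833445I07Rik in GENCODE vM21. Mir425 ends 1024 bases before the start of the protein-coding gene Dalrd3 in that annotation. A predicted miRNA gene on the other strand, Gm24083, overlaps Mir191. The same miR-103-3p comes from Mir103-1 (chr11:35782396-35782481), in an intron of Pank3, and from Mir103-2 (chr2:131288052-131288137), in an intron of Pank2, and its counts do not tell the 2 sources apart. miR-107-3p comes from Mir107 (chr19:34820687-34820773, minus strand), in an intron of Pank1.

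All 5 miRNAs were counted well above the floor in every library. Library totals ran from 4842247 UMIs (Sham 2) to 11461361 (AMI 2). In 2 pairs of libraries, AMI 1 with Sham 2 and AMI 2 with Sham 1, the larger count of an entry was either 0 or at least 10, so a low entry listed at 0 in both libraries of a pair may not be a measured absence. This touches none of the 5 miRNAs, whose lowest count was 962 UMIs. The myocardial miRNAs miR-1a-3p, miR-133a-3p, miR-208a-3p and miR-499-5p were higher in AMI (4 of 4 called by the edgeR test described further on). Over all miRNAs tested, 14.8% were called higher in AMI.

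miR-191-5p was the most abundant of the 5, ranking 22 among the 921 miRNA entries by mean UMIs. It had 96966 (AMI 1), 121239 (AMI 2), 72248 (Sham 1) and 40895 UMIs (Sham 2). Scaled to a common library size by the TMM method, these were 11080 and 12577 CPM (UMIs per 1000000 of the scaled library) in AMI and 9589 and 7072 in Sham, with both AMI libraries above both Sham libraries. miR-107-3p had 15972 and 21676 UMIs in AMI and 11778 and 6361 in Sham. Its levels of 1825 and 2249 CPM in AMI likewise lay above the 1563 and 1100 CPM in Sham. These 2 miRNAs were thus ordered alike over the 4 libraries, with AMI 2 highest and Sham 2 lowest. Total UMIs had the same order, from 11461361 (AMI 2) over 9016139 (AMI 1) and 7460687 (Sham 1) to 4842247 (Sham 2). Group and depth cannot be told apart here.

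miR-103-3p, which differs from miR-107-3p at 1 base, did not separate the groups. Its 22289 and 28192 UMIs in AMI and 24509 and 15445 in Sham came to 2547 and 2925 CPM in AMI and 3253 and 2671 in Sham, with Sham 1 highest. miR-425-5p had 20402 and 18313 UMIs in AMI and 19528 and 10607 in Sham. Its levels of 2331 and 1900 CPM in AMI and 2592 and 1834 in Sham overlapped, with the wider spread inside each group than between them. miR-425-3p, the less abundant arm, had 1154 and 1285 UMIs in AMI and 996 and 962 in Sham. It stood at 132 and 133 CPM in AMI and at 132 CPM in Sham 1, and only Sham 2, at 166 CPM, was apart.

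**Figure D1:**
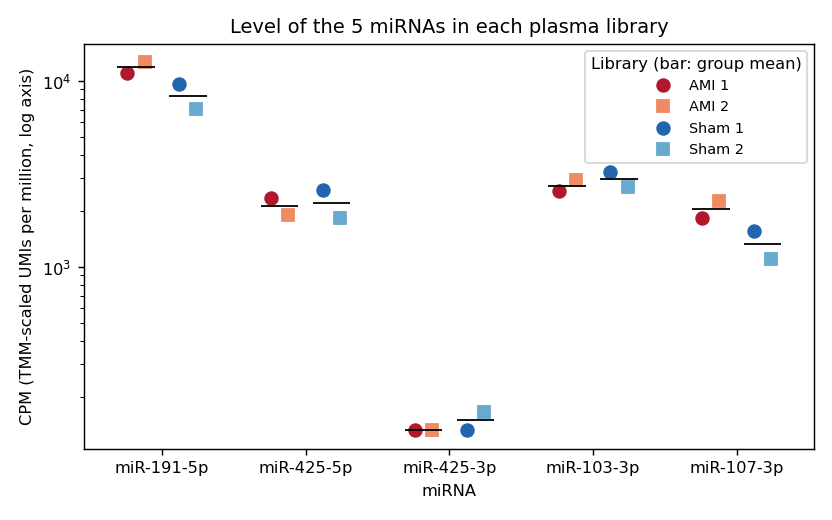
Level of each of the 5 miRNAs in each library, in CPM on a log axis, with points for the libraries and black bars for the group means (n = 2 libraries per group). For miR-191-5p and miR-107-3p both AMI points lie above both Sham points, whereas for miR-425-5p, miR-425-3p and miR-103-3p the groups overlap.

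Over the 4 libraries, miR-103-3p and miR-425-3p varied least. The SD of log2 CPM was 0.16 for both, against a median of 0.61 over the 745 tested miRNAs with UMIs in every library, and 2.28% and 2.82% of these had an SD as low as miR-103-3p and miR-425-3p. miR-425-5p followed at 0.24 (8.86%), miR-191-5p at 0.36 (20%) and miR-107-3p at 0.43 (29.5%). From the lowest to the highest library, miR-107-3p spanned 1.03 and miR-191-5p 0.83 on the log2 scale, while miR-425-5p spanned 0.50, miR-103-3p 0.35 and miR-425-3p 0.34. All 5 spans were smaller than the median span of 1.36. miR-103-3p is 1 of the 6 reference miRNAs of the study, which were chosen as stable on these libraries. Its low spread was therefore in part selected for.

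To ask whether any of the 5 differed between AMI and Sham plasma, UMI counts of all miRNAs were compared with the quasi-likelihood test of edgeR (TMM scaling, two-sided, p adjusted by Benjamini and Hochberg over 772 miRNAs left by edgeR's filter on low counts, threshold 0.05). All 5 passed the filter and 0 of 5 were called, with 0 at an unadjusted p under 0.05 and 0 called by DESeq2, whereas 27.5% of all miRNAs tested were called (14.8% higher and 12.7% lower in AMI) and 39.2% had an unadjusted p under 0.05. miR-107-3p had the largest difference, at 2037 ± 299.5 CPM (SD, n = 2) in AMI and 1332 ± 327.5 (SD, n = 2) in Sham, with log2FC (the log2 fold change, AMI over Sham) of 0.61 (standard error 0.37, 95% interval −0.19 to 1.41, edgeR adjusted p = 0.235). For miR-191-5p the means were 11829 ± 1059 and 8330 ± 1780 CPM (SD, n = 2 each), with log2FC of 0.51 (0.37, −0.31 to 1.32, edgeR adjusted p = 0.341). That both AMI libraries lay above both Sham libraries for 2 of the 5 is close to the background, as this held for 35.0% of all miRNAs tested. Groups did not overlap in either direction for 2 of the 5, against 65.4% of all miRNAs tested, and 0 of the 5 had every AMI value below every Sham value, against 30.4%.

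The other 3 were nearer to 0. miR-425-5p was at −0.07 on the log2 scale (95% interval −0.86 to 0.73, edgeR adjusted p = 0.945), miR-103-3p at −0.11 (−0.89 to 0.66, 0.872) and miR-425-3p at −0.17 (−0.97 to 0.63, 0.783). The intervals are wide, with a median half-width of 0.90 over all miRNAs tested, and leave room for changes of either sign in all 5. Without Sham 1, miR-107-3p passed the threshold with log2FC of 0.89 (edgeR adjusted p = 0.0277, range 0.0277 to 0.774 over its alternatives), with the lone Sham library assumed to vary as the AMI libraries do. The signs of miR-425-5p and miR-103-3p turned positive when libraries were scaled to the 6 reference miRNAs of the study (0.11 and 0.06), a scaling that shifted the median log2FC over all miRNAs by 0.17, while library size alone shifted it by −0.27. miR-103-3p is itself among these 6, so its own count enters that scaling and draws its log2FC towards 0. Under the 6 references miR-107-3p reached an unadjusted p of 0.0473 from edgeR (adjusted 0.121). Relative to the median log2FC of all miRNAs tested with TMM, miR-191-5p stood at 0.46, miR-107-3p at 0.57, miR-425-5p at −0.11, miR-103-3p at −0.16 and miR-425-3p at −0.21. Another scaling moves all log2FC by about the same amount, so it bears little on these differences.

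**Figure D2:**
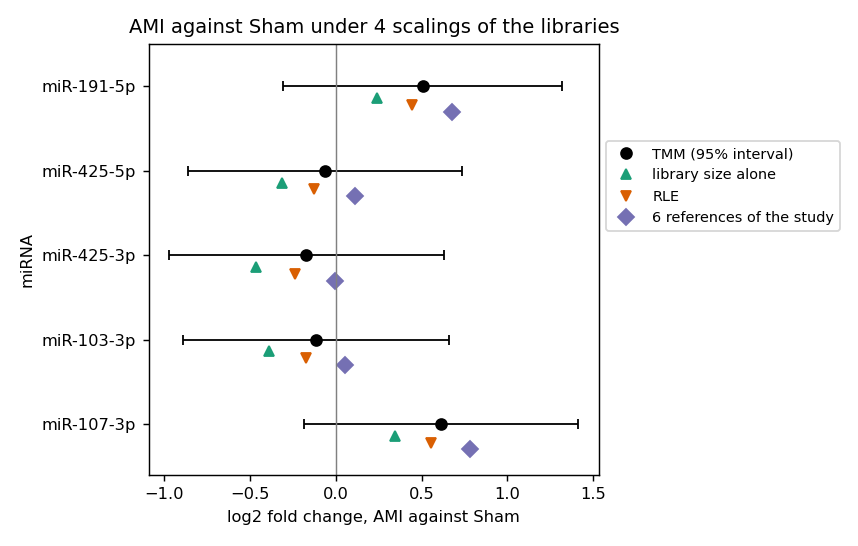
Log2 fold change of each miRNA, AMI against Sham, with TMM scaling (black points, with the 95% interval from edgeR) and with 3 other scalings of the libraries. The scaling to the 6 references of the study includes miR-103-3p itself. The 95% interval crosses 0 for each of the 5, and the choice of scaling moves all 5 miRNAs together, miR-191-5p from 0.24 to 0.68 and miR-107-3p from 0.35 to 0.78.

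The ratio of 2 miRNAs inside a library needs no scaling between libraries, so the 10 pairs of the 5 miRNAs were compared next. Of the 6 pairs that leave out the scarcer miR-425-3p, the near-identical partners showed the largest shift. There were 0.717 and 0.769 UMIs of miR-107-3p for each UMI of miR-103-3p in the AMI libraries, but 0.481 (Sham 1) and 0.412 (Sham 2) in the others. This log2 ratio was 0.74 higher in AMI (1.67-fold, SDs 0.07 in AMI and 0.16 in Sham, n = 2 each). Counting error gives this difference a 95% interval of 0.71 to 0.77. That interval includes neither the spread between mice or libraries nor the uncertain split of reads between these 2 miRNAs. The gap between the nearest AMI and Sham libraries was 0.58.

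miR-191-5p moved against miR-103-3p in the same direction. It had 4.35 and 4.30 UMIs per UMI of miR-103-3p in AMI and 2.95 and 2.65 in Sham, a log2 difference of 0.63. Between miR-191-5p and miR-107-3p, in contrast, the ratio hardly varied, at 6.07 and 5.59 in AMI and 6.13 and 6.43 in Sham. Its SD over the 4 libraries was 0.08 on the log2 scale, and 0.130% of all 291466 pairs of candidate miRNAs had one as low. This pair is named as the lowest of the 10, and the others stood between 2.26% and 24.2%.

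The products of the 2 hairpins in the cluster did not keep a fixed ratio, although they derive from 1 transcript. miR-191-5p had 4.75 and 6.62 UMIs per UMI of miR-425-5p in AMI and 3.70 and 3.86 in Sham, a log2 difference of 0.57 (0.33 without AMI 2), with AMI 1 nearer to the Sham libraries than to AMI 2. The 2 arms of Mir425 also varied against each other, with 17.7 and 14.3 UMIs of miR-425-5p per UMI of miR-425-3p in AMI and 19.6 and 11.03 in Sham. Here the groups overlapped, and the Sham libraries stood farther apart than the AMI libraries. miR-103-3p had 1.09 and 1.54 UMIs per UMI of miR-425-5p in AMI and 1.26 and 1.46 in Sham, a log2 difference of −0.06. Per UMI of miR-425-3p it had 19.3 and 21.9 in AMI and 24.6 and 16.1 in Sham, a difference of 0.05, and both ratios overlapped between the groups. All 3 differences among these miRNAs changed sign when some single libraries were left out.

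Against the arms of Mir425, miR-107-3p followed miR-191-5p. For each UMI of miR-425-5p there were 0.783 and 1.18 UMIs of miR-107-3p in AMI and 0.603 and 0.600 in Sham, so the Sham libraries were nearly equal and AMI 2 stood highest (log2 difference 0.68, 0.38 without AMI 2). Each UMI of miR-425-3p was matched by 13.8 and 16.9 UMIs of miR-107-3p in AMI and by 11.8 and 6.61 in Sham, with Sham 2 lowest (0.79, and 0.37 without Sham 2). The same scarce arm was matched by 84.0 and 94.3 UMIs of miR-191-5p in AMI and by 72.5 and 42.5 in Sham, again with Sham 2 apart (0.68, and 0.30 without Sham 2).

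In 7 of the 10 pairs the AMI and Sham libraries did not overlap, 6 of them higher and 1 lower in AMI, which is close to the 68.2% of all pairs of candidate miRNAs that do not overlap. With 2 libraries per group an exact permutation test cannot go below p = 0.333 (two-sided), the value reached by these 7 pairs (0.476 adjusted over the 10 pairs). The 10 pairs are built from 5 miRNAs and are not independent. The absolute log2 differences of the 10 pairs had a median of 0.60, against 1.17 over all pairs of candidates. When the libraries were scaled by miR-103-3p and all miRNAs were tested anew, miR-107-3p had log2FC of 0.74 (95% interval −0.03 to 1.50, edgeR adjusted p = 0.148) and miR-191-5p one of 0.63 (−0.13 to 1.39, 0.218). Scaled by miR-107-3p, miR-191-5p was at −0.11 (−0.90 to 0.69, 0.881). The difference between miR-107-3p and miR-103-3p did not pass the test.

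**Figure D3:**
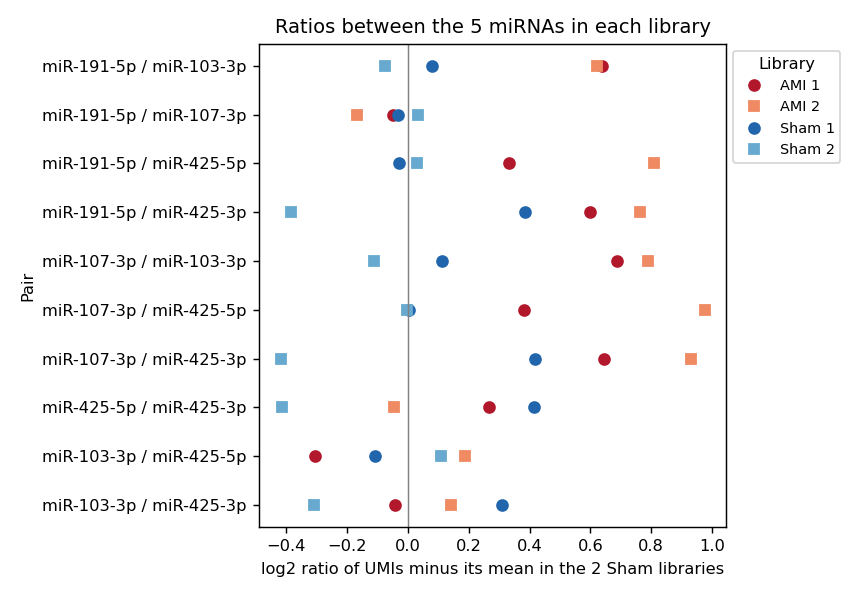
Log2 ratio of UMIs for each of the 10 pairs in each library, drawn relative to its mean in the 2 Sham libraries. In the ratios of miR-191-5p and miR-107-3p to the other 3 miRNAs both AMI points lie to the right of both Sham points, while the ratio of miR-191-5p to miR-107-3p stays between −0.17 and 0.03 in all 4 libraries.

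The stability of a reference can be summarised by M of the geNorm method, which the series' own description uses. For each miRNA, the SD over the 4 libraries of its log2 ratio to every other candidate is taken, and M is the average of these SDs, so that a low M marks a steady miRNA. Among the 764 candidates, those with 1 or more UMIs per library, M was 0.749 for miR-425-3p (rank 29 from the most stable) and 0.752 for miR-103-3p (rank 36). It was 0.770 for miR-425-5p (rank 76), 0.787 for miR-191-5p (rank 109) and 0.820 for miR-107-3p (rank 185), against a median of 0.939. All 5 lay under the limit of 1.5 given with the data, as did 92.1% of candidates, so this limit does not separate them from most miRNAs. The rank of miR-103-3p was in part selected for, as the study chose it as a reference on these libraries.

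By stepwise exclusion of the least steady miRNA, miR-425-3p reached rank 7 and miR-103-3p rank 40, while miR-425-5p reached 72, miR-191-5p 118 and miR-107-3p 166. The ranks depend on single libraries, and also on how many UMIs a candidate must have. That of miR-425-3p by M fell between 11 (without Sham 2) and 97 (without Sham 1) and that of miR-103-3p between 38 and 109, the latter without Sham 2. With 1 library left out, miR-191-5p ranked between 75 and 207, miR-107-3p between 141 and 294 and miR-425-5p between 48 and 145. Without Sham 2 the order of the 5 changed in part, with miR-191-5p (M 0.666) below miR-103-3p (0.678), and miR-107-3p (0.6890) just below miR-425-5p (0.6894).

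As a set, the 5 miRNAs had an M of 0.368, which became 0.278 without Sham 2. The 6 reference miRNAs of the study, which were chosen on these libraries and include miR-103-3p, had 0.129. The 11 other miRNAs of a list of common plasma normalizers had 0.611. Of that list, miR-423-5p (rank 19), miR-23a-3p (59) and miR-92a-3p (95) had the lowest M, and miR-451a, a red blood cell miRNA, the highest (rank 559). Between AMI and Sham 0 of the 11 were called by edgeR, while 3 had an unadjusted p under 0.05 and 3 were called by DESeq2, beside 27.5% called by edgeR, 39.2% at an unadjusted p under 0.05 and 251 called by DESeq2 over all 772 miRNAs. These 3 by edgeR were miR-24-3p (log2FC 1.02, adjusted p = 0.0528), miR-451a (−1.26, 0.0536) and miR-30e-5p (0.90, 0.0906). The median log2FC of the 11 was 0.24, beside 0.04 over all miRNAs tested.

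**Figure D4:**
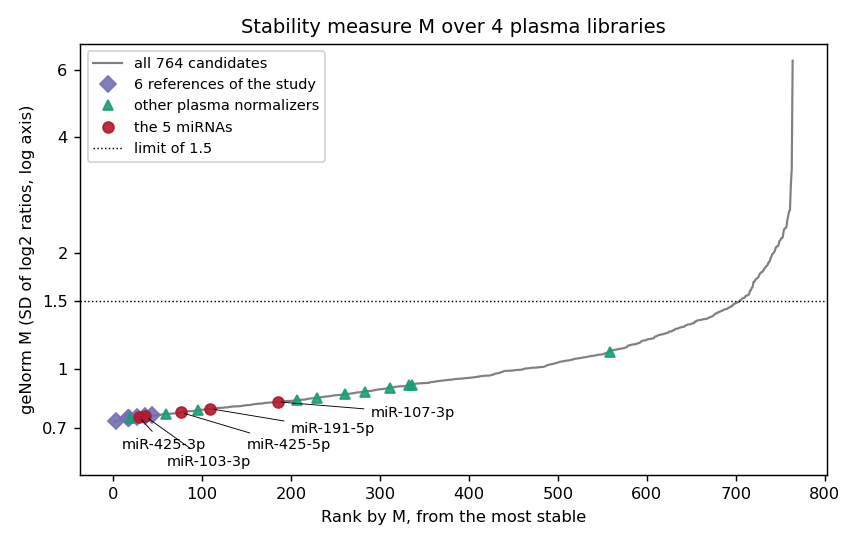
M of all 764 candidate miRNAs against their rank (grey line, log axis), with the 5 miRNAs, the 6 references of the study and 11 other plasma normalizers marked. The 5 miRNAs lie between rank 29 and rank 185, the references between 3 and 44 and the other normalizers between 19 and 559.

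What each miRNA would do as the sole normalizer was read from the calls it gave across the 772 miRNAs. With TMM scaling 114 miRNAs were called higher and 98 lower in AMI. Scaled by miR-103-3p the counts were 126 and 79, by miR-425-5p 103 and 80, and by miR-425-3p 118 and 71. Scaled by miR-191-5p they became 57 higher and 175 lower, and by miR-107-3p 46 and 182. The share of higher calls thus moved from 53.8% with TMM to 61.5%, 56.3% and 62.4% for the first 3 and to 24.6% and 20.2% for miR-191-5p and miR-107-3p. The median of all log2 fold changes moved by −0.53 with miR-191-5p and by −0.64 with miR-107-3p, but by 0.04 to 0.14 with the other 3. Any normalizer shifts all log2 fold changes by about the same amount, so the balance of calls largely restates its own difference between the groups. A sole normalizer also changes the spread inside the groups. The standard error of miR-103-3p was 0.35 with TMM and 0.38 to 0.51 when scaled by the other members. The counts do not show which scaling is right.

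Scaled by all 5 together, 99 miRNAs were higher and 125 lower. Larger changes kept their direction under all 5, as miR-1a-3p, a miRNA of heart and skeletal muscle, had log2FC of 2.54 (scaled by miR-107-3p) to 3.30 (scaled by miR-425-5p) and its partner miR-133a-3p of 3.05 (miR-107-3p) to 3.77 (miR-103-3p) over the 5 scalings. The counts of calls rest on all 4 libraries. Leaving out AMI 1 lowered them to between 40 and 56 and leaving out AMI 2 to between 32 and 86 for the 5 normalizers, with the remaining AMI library assumed to vary as the Sham libraries do. Without Sham 1 they were 103 to 333 and without Sham 2 90 to 261. The balance of higher and lower calls moved too. Without Sham 1 it turned for miR-103-3p (52 higher and 66 lower) and miR-425-5p (36 and 67), and without AMI 2 it was nearly even for miR-191-5p (18 and 20) and miR-107-3p (15 and 17).

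**Figure D5:**
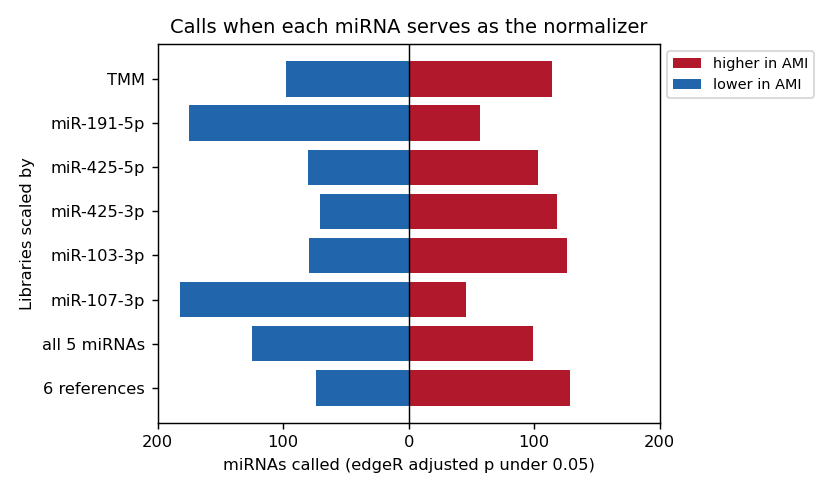
Number of miRNAs called higher (to the right, red) and lower (to the left, blue) in AMI when libraries were scaled by TMM, by each of the 5 miRNAs, by all 5 or by the 6 references of the study. Scaling by miR-191-5p or miR-107-3p gave 175 and 182 lower calls, against 71 to 98 for TMM and the other 3 miRNAs.

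The miRNAs with the most similar patterns differed for the 5. Likeness was measured as a low SD over the 4 libraries of the log2 ratio to each of 357 miRNAs with at least 50 UMIs in every library. For miR-191-5p the nearest were miR-1191a (SD 0.043), miR-361-5p (0.074) and miR-1981-5p (0.075). The nearest to miR-107-3p were miR-186-3p (0.049), miR-1191a again (0.064) and miR-25-3p (0.077). The closest match of miR-425-3p was miR-141-3p (0.011), a member of the epithelial miR-200 family, which had 5868 and 6620 UMIs in AMI and 5119 and 4978 in Sham. miR-425-5p was nearest to miR-92a-3p (0.073), and miR-103-3p to miR-350-3p (0.076) and miR-154-5p (0.079), one of the study's references. These are the lowest of 357 values over only 4 libraries.

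The other arms of these hairpins were scarce. miR-191-3p had 313 and 539 UMIs in AMI and 401 and 207 in Sham, with log2FC of 0.04 (edgeR adjusted p = 0.963). Each of its UMIs was matched by 310 and 225 UMIs of miR-191-5p in AMI and by 180 and 198 in Sham, so the arm ratio was higher in both AMI libraries. Such a separation in either direction is usual here, as it held for 68.2% of all pairs of candidate miRNAs. miR-103-1-5p had 0 and 5 UMIs in AMI and 13 and 0 in Sham, and miR-103-2-5p 0 and 10 in AMI and 9 and 0 in Sham. Both were listed at 0 in AMI 1 and Sham 2, a pair of libraries in which no entry had a larger count of 1 to 9, and were not tested.

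miR-103-3p and miR-107-3p belong to a wider group that also includes miR-15, miR-16, miR-195, miR-322, miR-497 and miR-503, which share the bases AGCAGC near the 5′ end. These 4 are shown because the shared bases, in capitals, start at base 1 in miR-103-3p and miR-107-3p but at base 2 in the others, so the seeds differ.
miR-107-3p: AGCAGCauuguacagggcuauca
miR-16-5p: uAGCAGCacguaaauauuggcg
miR-322-5p: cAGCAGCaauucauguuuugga
miR-503-5p: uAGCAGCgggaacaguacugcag
Of 1679 mature mouse miRNAs in the RefSeq table, 13 (0.774%) have AGCAGC at base 1 or 2, read on the miRNA strand itself. On the list of 9 other group members, 8 have it, and miR-497b, which does not, was on the list all the same.

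Of the 8 list members in the table, 2 were called lower in AMI and 0 higher (27.5% of all miRNAs tested were called in either direction, 12.7% lower). miR-503-5p, from the X-linked cluster of miR-322 and miR-503, had 274 and 359 UMIs in AMI and 1523 and 636 in Sham, with log2FC of −2.19 (standard error 0.42, edgeR adjusted p = 0.00397). miR-322-5p, from the same cluster, had 1458 and 2505 UMIs in AMI and 4454 and 2957 in Sham, with log2FC of −1.37 (0.38, edgeR adjusted p = 0.0196). The call of miR-503-5p was lost without AMI 1 (adjusted p = 0.0571). That of miR-322-5p was lost without AMI 1 (0.367), without AMI 2 (0.0957) and with miR-425-3p as the normalizer (0.0549). Both stayed negative under every setting tried. Of the rest, miR-16-5p, the most abundant member, was at 0.74 (adjusted p = 0.233), whereas miR-497a-5p was at −1.26 (unadjusted p = 0.0199 from edgeR, adjusted 0.063) and miR-195a-5p at −0.70. In all, 3 of the 8 had an unadjusted p under 0.05 (39.2% of all miRNAs tested) and 3 were called by DESeq2, and the list's median was −0.40, beside 0.04 over all miRNAs tested. miR-103-3p, at −0.11, and miR-107-3p, at 0.61, lay inside the list's span of −2.19 to 0.74.

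Markers of the cells that could feed these miRNAs into plasma moved between the libraries. Haemolysis is commonly gauged by miR-451a, from red blood cells, against miR-23a-3p. Here their log2 ratio was lower in both AMI libraries (1.02 and 0.52) than in the Sham libraries (3.02 and 1.56). In the ratio miR-451a had log2FC of −1.26 and miR-23a-3p of 0.34. The other red blood cell miRNAs did not share the direction of miR-451a throughout, as miR-144-5p was at −0.37 but miR-144-3p, miR-486a-5p and miR-486b-5p at 0.27, 0.15 and 0.32, with a list median of 0.15. Of 5 red blood cell miRNAs 0 were called by edgeR (1 at an unadjusted p under 0.05, 1 by DESeq2), beside 27.5% called and 39.2% at an unadjusted p under 0.05 over all miRNAs tested, and their summed level was 119836 to 139648 CPM in AMI and 98678 to 180695 in Sham. Of 5 platelet miRNAs 0 were called (1 unadjusted, 1 by DESeq2), with sums of 38905 to 43991 and 31198 to 34630 CPM, in which miR-223-3p (log2FC 1.07) was higher in AMI while the other 4 lay between −0.62 and −0.23 (median of the 5, −0.37). All 5 hepatocyte miRNAs were called higher in AMI, as were 14.8% of all miRNAs tested, with sums of 84959 to 120490 and 9026 to 21152 CPM. No marker on these lists was at 0 in any library. Their part in the levels of the 5 miRNAs was not tested, and in plasma, fewer releasing cells and less RNA per cell cannot be told apart.

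Amplification differed little between the 5 miRNAs. Reads per UMI were 1.09 to 1.11 in AMI 1 and in AMI 2, 1.11 to 1.14 in Sham 1 and 1.26 to 1.31 in Sham 2. All miRNAs together had 1.16, 1.19, 1.17 and 1.28 in these libraries, above all 5 miRNAs in each library but Sham 2. Read counts in place of UMI counts gave log2 fold changes of 0.62 for miR-107-3p, 0.50 for miR-191-5p and −0.12 for miR-103-3p.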

How the data were processed

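Plasma small RNA of 2 AMI and 2 Sham libraries was analysed from 1 deposited table. The authors deposited whole-number UMI counts and read counts for 921 miRNA and 94 piRNA entries, without normalization. The submitters' processing notes name bcl2fastq 2.18.0.12 and mm10. The sources used here give no trimmer, aligner or miRNA annotation. A divider line (1) held no values. Total UMIs ranged from 4842247 to 11461361 per library. Intervals on ratios cover counting error only.

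Counts of miRNA entries were fitted in edgeR 4.0.16 (R 4.3.3) with filterByExpr, TMM and a robust quasi-likelihood fit. DESeq2 1.42.0, 3 other scalings, other filters, read counts, piRNA entries included, replicate blocks and each library left out were alternatives. Ratios, M and the exact permutation test were computed in Python 3.11.15 with numpy 2.4.6 and scipy 1.17.1. edgeR was also run on simulated counts that took their means from the main fit and their spread from its trend over level. Single miRNAs were given no further spread of their own, so real changes may be missed more often. Of the simulated miRNAs, 731 passed the filter. Among these edgeR called 20 of 54 2-fold changes, 68 of 72 4-fold changes and 69 of 69 8-fold changes, with 2 false calls. Changes of 2-fold or less can thus be missed. Replicate libraries differed beyond sampling noise. Members, lists and tests were chosen with earlier results of these data known. The miRNAs named are the 5 members, their opposite arms, the group of miR-15 and miR-107, common plasma normalizers, the study's references, cell markers and up to 3 nearest patterns per member. The seed partner miR-489-3p was added after its values were seen.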

Additional observations from a re-analysis of the deposited data

How the results depend on the processing

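Of 213 alternatives over 28 results, 169 stayed the same, 31 moved the value, 12 reversed the sign and 1 gained a call. Staying the same meant an unchanged sign and call for a fold change and an unchanged sign for a ratio. For M and for counts of calls it meant a value within a set range of the main one. The balance of higher and lower calls could still turn within that range, as with library size alone. Scaled to the 6 references, which include miR-103-3p itself, miR-425-5p turned to 0.11 and miR-103-3p to 0.055 (log2FC). Leaving out 1 library gave 79 to 305 called miRNAs, 0 to 1 called members and log2FC of 0.27 to 0.74 (miR-191-5p), −0.32 to 0.20 (miR-425-5p), −0.33 to −0.03 (miR-425-3p), −0.28 to 0.031 (miR-103-3p) and 0.35 to 0.89 (miR-107-3p). Calls then ran from 38 to 184, 36 to 103, 42 to 333, 56 to 118 and 32 to 314 when scaled by these 5 in turn (added after seeing the data). The log2 ratio of miR-425-5p to miR-425-3p ran from −0.30 to 0.53, and that of miR-103-3p to each of them from −0.31 to 0.19 and −0.26 to 0.36. For the others it kept its sign, from 0.55 to 0.71 for miR-191-5p to miR-103-3p, −0.17 to −0.05 to miR-107-3p, 0.33 to 0.81 to miR-425-5p and 0.30 to 1.07 to miR-425-3p, and from 0.63 to 0.85, 0.38 to 0.98 and 0.37 to 1.21 for miR-107-3p to miR-103-3p, miR-425-5p and miR-425-3p. M ran from 0.278 to 0.413 for the set, and from 0.666 to 0.803, 0.689 to 0.790, 0.646 to 0.775, 0.678 to 0.780 and 0.689 to 0.847 for the 5. With at least 10 or 50 UMIs in every library, M was 0.7002 and 0.722 (miR-425-5p), 0.672 and 0.687 (miR-425-3p) and 0.674 and 0.685 (miR-103-3p). It was 0.736 and 0.763 for miR-191-5p and 0.774 and 0.801 for miR-107-3p. The median M of the candidates fell too, from 0.939 to 0.842 and 0.859. With at least 50 UMIs, positions counted from the most stable candidate also moved. miR-191-5p went from 14.3% to 26.5%, miR-107-3p from 24.2% to 34.3% and miR-425-5p from 9.95% to 13.5%. miR-425-3p moved less, to 4.42%, and miR-103-3p the other way, from 4.71% to 3.87%. Library size alone gave 86 higher and 147 lower calls, and the 6 references 129 and 74. The cause was not tested, beyond fewer libraries or candidates.

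The replicate numbers are shared in the labels by number only, and same-numbered libraries did not deviate together (correlation −0.37 over 772 miRNAs, 0.03 over the 745 with UMIs in every library). With the replicate block 172 miRNAs and 0 members were called, with log2FC of 0.63 for miR-107-3p (edgeR adjusted p = 0.317). Crossed pairs, added after seeing the data, gave 249 and 0.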
